A study of Mus musculus with 15 samples.

Results

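The ephrin-B ligands and EphB receptors were followed through bulk RNA-seq of cultured mouse bone marrow endothelial cells (BMECs) and of 2 reference populations. The members were the rows of the count table whose symbol is Efnb1, Efnb2, Efnb3, Ephb1, Ephb2, Ephb3, Ephb4 or Ephb6, 8 of 44674 genes, and all 8 passed the filter on low counts that left 19401 genes. The libraries came from 8 conditions with 2 libraries each, except the last passage with 1. By the methods, a culture could give both Emcn fractions and the later passages, so libraries of different conditions need not be separate cultures. The labels do not say which libraries share a culture, or whether 2 libraries of a condition came from different mice. The main fit took all libraries as independent, so the p-values measure the spread between these libraries.

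The cultures were started from adult mice, all with the genotype WT in the labels. By the methods, the BMEC and lung cultures came from tamoxifen-treated Tie2-CreERT2;Rosa26-tdTomato mice, in which the Tie2 promoter drives a tamoxifen-inducible recombinase. The tdTomato label therefore marks Tie2 promoter activity around the time of treatment and not endothelial identity at harvest. Whole bone marrow was grown in an endothelial medium, and cells of this first culture (P0) that were CD45-, tdTomato+ and either positive or negative for the surface sialomucin endomucin (Emcn) gave P0 Emcn+ BMECs and P0 Emcn- BMECs. The Emcn- BMECs were also sampled at passages P1, P2, P3 and P4. The lung ECs came from lung cultures and, by the methods only, were Emcn-. The BM MSC (mesenchymal stromal cells) were tdTomato+ cells of untreated Osx-Cre;Rosa26-tdTomato mice, where the Osx promoter marks osteolineage and stromal cells. By the methods, the MSC were grown in a mesenchymal medium (MesenCult) and the lung cultures in the endothelial medium. Medium and condition therefore cannot be told apart between the MSC and the other libraries.

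The Eph receptors are receptor tyrosine kinases, and their ephrin ligands are held in the membrane of the neighbouring cell, so both cells receive a signal on contact. The B class ligands cross the membrane and signal into their own cell, which is called reverse signalling, while the receptor signals forward. In developing vessels, ephrin-B2 (Efnb2) is the classical label of arterial endothelium and its receptor EphB4 (Ephb4) that of venous endothelium, and the pair keeps both territories apart. Ephrin-B1 (Efnb1) and the receptors EphB2 and EphB3 are also known from mesenchyme, bone and the gut, and EphB6 lacks an active kinase.

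Library totals ran from 9914620 counts (P0 Emcn- replicate 2) to 39718807 (P0 Emcn- replicate 1), so 3 counts, the limit that a count of 0 allows, stood for 0.303 to 0.0755 CPM. Summed over 10 endothelial markers, the level was 10562 to 12764 CPM in P0 Emcn+ BMECs, 68.0 to 276 in P0 Emcn-, 135 to 505 in lung, 42.6 to 352 in MSC and 43.9 to 68.2 in the passaged libraries. Summed over 10 fibroblast or mesenchymal markers, it was 246 to 324 CPM in P0 Emcn+ and 16916 to 21943 in P0 Emcn-, with 13540 to 14525 in lung, 11974 to 20178 in MSC and 4809 to 7279 in the passaged libraries. No endothelial marker was at 0 in every library of a condition except Cldn5 and Robo4 at P4. Beside the mesenchymal sums, the endothelial sums of the Emcn- libraries labelled BMEC or lung EC were low, and these groups are called by their labels only. Emcn, the gene of the sort marker, had 631 and 798 CPM in P0 Emcn+, 12.7 and 2.52 in P0 Emcn-, and 32.6 and 125 in lung. In bulk libraries, fewer cells of a type and less RNA per cell cannot be told apart. By the labels, the first P0 and lung libraries formed batch d and the second ones batch a, while batch b held P4 with the first libraries of P1, P2 and P3, and batch c both MSC libraries with the second ones. Batch and condition cannot be told apart between the P0 or lung libraries and the passaged or MSC libraries.

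By GENCODE M21 (GRCm38), the 3 ligand genes are Efnb1 (ENSMUSG00000031217) on X from 99136130 to 99148991, Efnb2 (ENSMUSG00000001300) on 8 from 8617434 to 8661242 and Efnb3 (ENSMUSG00000003934) on 11 from 69554092 to 69560205. The receptor genes are Ephb1 (ENSMUSG00000032537) on 9 from 101922128 to 102354693, Ephb2 (ENSMUSG00000028664) on 4 from 136647539 to 136835988, Ephb3 (ENSMUSG00000005958) on 16 from 21204755 to 21223305, Ephb4 (ENSMUSG00000029710) on 5 from 137350109 to 137378669 and Ephb6 (ENSMUSG00000029869) on 6 from 41605482 to 41620509. Each lies on a different chromosome. Opposite-strand genes share exon bases with 2 of them, Gm26846 with 152 bases of Ephb1 (2.17% of its exon bases) and Zan with 33 bases of Ephb4 (0.711%). The sources used here do not give the strand setting of the counting, so reads of these stretches could belong to either gene.

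The upstream sequences of the 3 members that were higher in P0 Emcn+ BMECs and of the 2 receptors that were lowest there are shown because these 5 genes carry the contrast of the Emcn sort. Each is the 250 bases before the RefSeq transcript start (GRCm38.p6), in 5′ to 3′ direction of the gene, at chr8:8661243-8661492 (minus strand) for Efnb2, chr5:137349859-137350108 (plus) for Ephb4, chr9:102354694-102354943 (minus) for Ephb1, chr4:136836013-136836262 (minus) for Ephb2 and chr16:21204545-21204794 (plus) for Ephb3. Capitals mark every match, on either strand, to 7 short motifs. RBPJ, the effector of Notch, was searched as TGGGAA. The E-box of the HEY repressors was searched as CACGTG. SOX factors were searched as ACAAT, a shorter motif than the others. Nuclear receptors of the NR2F family were searched by the letters AGGTCA. ETS factors, common in endothelial enhancers, were searched as CCGGAA. The motif of GATA factors was AGATAA. SP and KLF factors were searched as GGGCGG, the GC box.
Efnb2: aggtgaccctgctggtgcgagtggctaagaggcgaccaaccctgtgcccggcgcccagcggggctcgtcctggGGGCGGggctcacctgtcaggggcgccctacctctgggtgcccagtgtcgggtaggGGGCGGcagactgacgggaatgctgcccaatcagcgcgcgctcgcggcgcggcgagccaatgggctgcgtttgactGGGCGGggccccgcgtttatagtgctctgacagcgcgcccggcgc
Ephb4: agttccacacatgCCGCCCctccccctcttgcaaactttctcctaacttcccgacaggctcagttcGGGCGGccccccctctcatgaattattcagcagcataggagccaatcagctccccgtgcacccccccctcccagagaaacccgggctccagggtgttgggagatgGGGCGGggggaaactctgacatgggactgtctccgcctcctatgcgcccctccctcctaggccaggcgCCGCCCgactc
Ephb1: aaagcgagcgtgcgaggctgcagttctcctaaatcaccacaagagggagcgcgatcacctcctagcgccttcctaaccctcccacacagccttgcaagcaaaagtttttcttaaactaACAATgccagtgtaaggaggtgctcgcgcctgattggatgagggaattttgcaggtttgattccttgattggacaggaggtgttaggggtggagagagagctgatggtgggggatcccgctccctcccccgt
Ephb2: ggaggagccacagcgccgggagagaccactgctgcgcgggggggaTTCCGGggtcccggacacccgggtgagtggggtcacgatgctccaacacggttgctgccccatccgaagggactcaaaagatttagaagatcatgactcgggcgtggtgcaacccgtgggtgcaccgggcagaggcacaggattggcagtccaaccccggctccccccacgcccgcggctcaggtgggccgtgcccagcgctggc
Ephb3: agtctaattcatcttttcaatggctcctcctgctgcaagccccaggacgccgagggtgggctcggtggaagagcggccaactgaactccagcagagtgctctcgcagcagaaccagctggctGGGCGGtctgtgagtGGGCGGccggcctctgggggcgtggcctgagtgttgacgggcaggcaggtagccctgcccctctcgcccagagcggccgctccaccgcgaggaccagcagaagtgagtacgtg

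Efnb2 held 3 GGGCGG boxes and Ephb4 held 4, and Ephb3, which was lower in P0 Emcn+, held 2. Ephb1 held a single ACAAT and Ephb2 a single CCGGAA. A promoter entry was matched for 7 members, and Efnb3 was the other. Among these 7, GGGCGG occurred in 4, CCGGAA in 2 and TGGGAA and ACAAT in 1 each (TGGGAA in Efnb1). Of all 32851 RefSeq promoters, 32.7% held GGGCGG, 12% CCGGAA, 21.6% TGGGAA and 27.7% ACAAT. The letters AGGTCA (14% of all promoters), CACGTG (6.0%) and AGATAA (10.0%) had no match in the 7 windows, which says only that these letters are not in these stretches. GC content was 72.0% for Efnb2, 64.0% for Ephb4, 54.0% for Ephb1, 68.4% for Ephb2 and 65.6% for Ephb3, beside a median of 52.4% over all promoters.

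Levels are given as CPM, counts scaled to the library total. Groups said not to overlap are only described, because the share of all genes without overlap was not counted. Differences are log2 fold changes from edgeR's quasi-likelihood test on all 15 libraries, with Benjamini-Hochberg adjusted p over 19401 genes. The standard error (SE) was derived as the fitted change without shrinkage over the square root of the test's F statistic. At low counts it need not match the printed change and its p. Calls needed both an adjusted p below 0.05 and a change of more than 1.5 on the log2 scale, in either direction.

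P0 Emcn+ BMECs differed from P0 Emcn- BMECs in 6 of the 8 genes, where 19.2% of all tested genes were called. Efnb2, Ephb4 and Ephb1 were higher (7.79% of all genes were called higher) and Ephb2, Ephb3 and Efnb3 were lower (11.4% were called lower). The arterial ligand and the venous receptor were thus both higher in the same sorted population. All 10 endothelial markers were called higher there as well. So were 3 of 10 macrophage markers, Cd68, Cd14 and Mrc1. Summed macrophage levels were 785 to 940 CPM in P0 Emcn+ and 231 to 257 CPM in P0 Emcn-. Mrc1 had 396 and 237 CPM of the P0 Emcn+ sums, and the paper also lists it as a sinusoidal or venous EC marker. The part of endothelial cells and macrophages in the higher Efnb2, Ephb4 and Ephb1 was not tested. The median log2 fold change was -0.95 over the 8 genes and -0.06 over all genes tested.

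Efnb2, the arterial ligand, had 218 and 125 CPM in the P0 Emcn+ pair, but only 20.1 and 16.1 CPM in the P0 Emcn- pair. The lower P0 Emcn+ library lay far above both P0 Emcn- libraries. The log2 fold change was 3.27 (SE 0.41, adjusted p = 0.00019), and within a batch it was 3.43 in batch d and 2.95 in batch a. Ephb4, the venous receptor and main partner of ephrin-B2, stood at 301 and 279 CPM against 74.9 and 91.5 CPM, without overlap. Its log2 fold change was 1.84 (SE 0.26, adjusted p = 0.000403), with 2.00 in batch d and 1.61 in batch a.

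Ephb1, a receptor known from neurons and from angiogenic endothelium, was the least even of the genes that rose. It had 838 and 193 counts (26.6 and 7.46 CPM) in P0 Emcn+ and 38 and 0 counts in P0 Emcn-, where 0 allows up to 0.303 CPM in that shallow library. Both P0 Emcn+ libraries lay above all 13 other libraries, of which the highest had 2.98 CPM. The log2 fold change was 4.86 (SE 1.31, adjusted p = 0.0184). Leaving out P0 Emcn+ replicate 1 gave 3.71 (adjusted p = 0.0951) and leaving out P0 Emcn- replicate 2 gave 4.18 (adjusted p = 0.0677), so the call was lost in both cases, and without P0 Emcn- replicate 1 the fitted value was 11.91, which is no bound because only a library at 0 remained. Without P0 Emcn+ replicate 2 it was 5.52.

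In the P0 Emcn-, lung and MSC pairs, the library with more Ephb1 also had the higher level of each of the 10 endothelial markers, except Tek in P0 Emcn- (20.3 CPM in replicate 1 and 49.4 CPM in replicate 2) and Cldn5 in lung (2.35 and 1.06 CPM). Cdh5 (VE-cadherin) had 119 CPM in P0 Emcn- replicate 1, which held the 38 Ephb1 counts, and 6.35 CPM in replicate 2, which held 0. In MSC, Cdh5 had 7.86 and 156 CPM and Ephb1 10 and 98 counts. In lung, Cdh5 had 39.5 and 171 CPM and Ephb1 10 and 15 counts. The passaged libraries had 0 to 3 Ephb1 counts and 0.0564 to 2.33 CPM of Cdh5. The part of remaining endothelial cells in the Ephb1 counts was not tested.

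Ephb2 and Ephb3, receptors of forward signalling in mesenchyme and epithelium, were low in the Emcn+ cells. Only 31 and 29 counts of Ephb2 (0.982 and 1.12 CPM) were found in the Emcn+ pair, beside 52.2 and 64.6 CPM in the Emcn- pair. Ephb3 had 16 and 9 counts (0.507 and 0.348 CPM) against 50.5 and 42.0 CPM. The groups did not come near each other in either gene. The log2 fold changes were -5.76 for Ephb2 (SE 0.48, adjusted p = 1.53e-05) and -6.69 for Ephb3 (SE 0.33, adjusted p = 8.62e-07). Within batches d and a they were -5.60 and -5.73 for Ephb2 and -6.38 and -6.55 for Ephb3. The summed fibroblast or mesenchymal markers, given above, differed between the same groups in the same direction, all 10 being called lower in P0 Emcn+, and their part in these differences was not tested.

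The third ligand, Efnb3, was scarce everywhere. It had 10 and 7 counts (0.317 and 0.271 CPM) in P0 Emcn+ and 34 and 17 counts (0.856 and 1.71 CPM) in P0 Emcn-, without overlap. Its log2 fold change of -2.02 (SE 0.53, adjusted p = 0.0138) was called, but a fit of the 2 groups alone gave an adjusted p of 0.0709 and shrinkage with ashr gave -1.35. The adjusted p was 0.0565 when the first P0 Emcn+ library was left out, 0.0714 when the second was, and 0.074 (log2 fold change -1.49) when replicate 2 of P0 Emcn- was.

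Efnb1 and Ephb6 were not called in this comparison. Efnb1, the X-linked ligand, had 28.6 and 33.7 CPM in the Emcn+ pair, below the 38.7 and 55.8 CPM of the Emcn- pair, with a difference of -0.57 (log2, SE 0.23, adjusted p = 0.0897). Ephb6, the receptor without an active kinase, had 3.39 and 5.60 against 8.21 and 15.1 CPM, a log2 difference of -1.33 (SE 0.48, adjusted p = 0.0581). The 2 groups did not overlap in either gene, but the differences did not pass the test. Without P0 Emcn- replicate 1, Ephb6 passed it at -1.70 (adjusted p = 0.0395), and without P0 Emcn- replicate 2 its value was -0.84.

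**Figure D1:**
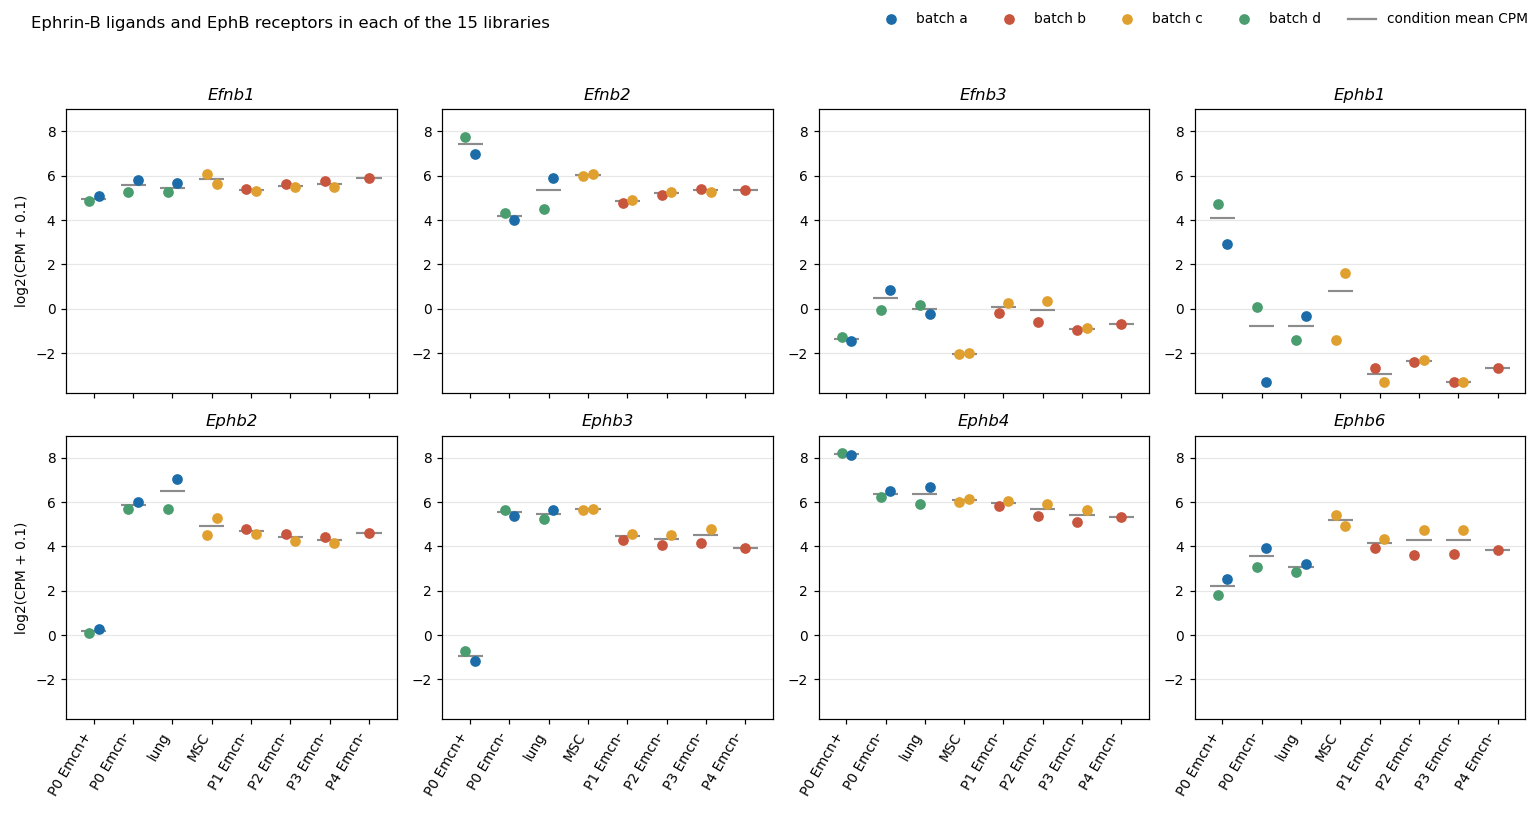
Level of each gene, as log2(CPM + 0.1) on the vertical axis, in each library by condition; points are libraries, colours are the batches of the labels and grey bars are the condition mean CPM on the same scale. Efnb2, Ephb1 and Ephb4 are highest in both P0 Emcn+ libraries, and Ephb2 and Ephb3 are lowest there (0.982 and 1.12 CPM for Ephb2).

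Seen per kilobase of exon, which allows levels of different genes to be set side by side, the Emcn sort separated different make-ups of the EphB family. In P0 Emcn+, Ephb4 made up 93.0% and 95.7% of the summed EphB level of the 2 libraries, Ephb1 5.45% and 1.70%, Ephb6 1.29% and 2.37%, and Ephb2 and Ephb3 together well under 1%. In P0 Emcn-, Ephb4 made up 53.4% and 56.1%, Ephb3 25.2% and 18.0%, Ephb2 13.7% and 14.6%, and Ephb6 7.21% and 11.4%. Ephb4 led the receptors in every library of every condition. The summed EphB level was 66.2 ± 4.84 CPM per kb in P0 Emcn+ and 32.7 ± 3.52 in P0 Emcn- (mean ± SD, n = 2), 33.7 ± 12.5 in lung and 34.5 ± 0.175 in MSC.

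The ligand family changed its leading gene instead. Efnb2 made up 79.2% and 65.0% of the summed ephrin-B level per kilobase in P0 Emcn+, while Efnb1 made up 77.8% and 84.8% in P0 Emcn-. Efnb1 also led in lung (75.3% and 62.1%), MSC (67.6% and 59.0%) and each passage, with means from 70.4% at P3 to 73.4% at P4. P0 Emcn+ was the one condition in which Efnb2 led, in both of its libraries. With the longest coding transcript in place of all exons, Efnb2 still led in P0 Emcn+ (77.6 ± 8.62%) and Efnb1 in P0 Emcn- (77.1 ± 6.19%). These shares were not tested, and they rest on the length taken for each gene.

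**Figure D2:**
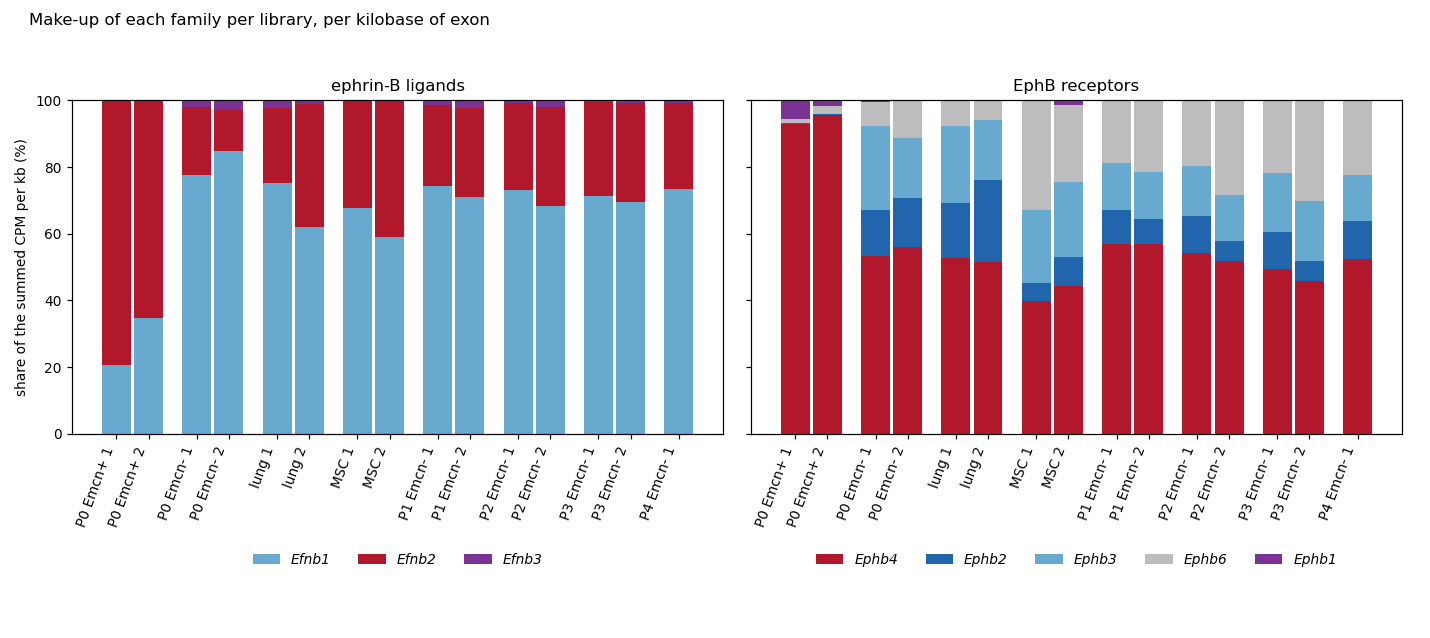
Share of each gene in the summed level of its family, in percent of CPM per kb of exon, for each library; the left panel shows the 3 ligands and the right panel the 5 receptors. Ephb4 fills 93.0% and 95.7% of the EphB bar in P0 Emcn+ and 53.4% and 56.1% in P0 Emcn-, and the leading ligand is Efnb2 in P0 Emcn+ and Efnb1 in the other conditions.

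The ratio of Efnb2 to Ephb4 CPM, an arterial label over a venous one, was read between libraries only, since it is not corrected for length. Its log2 value was -0.46 and -1.15 in P0 Emcn+, -1.89 and -2.50 in P0 Emcn-, -1.44 and -0.77 in lung, and -0.01 and -0.09 in MSC. Among the passaged libraries it was -1.03 and -1.16 for P1, -0.25 and -0.66 for P2, 0.31 and -0.38 for P3, and 0.04 for the P4 library. The P0 Emcn- libraries held the 2 lowest ratios, and P3 replicate 1, P4 and both MSC libraries the highest 4. P0 Emcn+, lung and P1 overlapped. These ratios were not tested.

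Lung ECs had 0 of 8 genes called against P0 Emcn- (3.83% of all genes called) and 6 of 8 against P0 Emcn+ (21.1% called). By edgeR 1 gene had an unadjusted p under 0.05 against P0 Emcn-, and DESeq2 also called 0. The 2 comparisons share the lung libraries, and a difference that misses the threshold does not show equal levels.

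Efnb2 was the gene with the smallest p between lung and P0 Emcn-, at 22.5 and 59.5 CPM in lung against 20.1 and 16.1 CPM. Lung replicate 1 lay beside the P0 Emcn- libraries and replicate 2 well above them. The log2 fold change was 1.22 (SE 0.38, adjusted p = 0.108), with 0.16 in batch d and 1.88 in batch a. Without lung replicate 1 it was 1.75 (adjusted p = 0.0174), a call that then rests on 1 lung library, and without lung replicate 2 it was 0.39. The same replicate 2 was also the higher for Ephb2 (51.4 and 132 CPM), Ephb4 (61.1 and 101 CPM), Ephb3 (38.0 and 50.7 CPM) and Efnb1 (37.9 and 50.5 CPM), and its summed endothelial markers were 505 CPM beside 135 in replicate 1. The part of those cells in the levels was not tested.

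Against P0 Emcn+, lung ECs had higher Ephb2, Ephb3 and Efnb3 (12.6% of all genes were called higher) and lower Efnb2, Ephb1 and Ephb4 (8.48% called lower). The log2 fold changes were 6.47 for Ephb2 (SE 0.49, adjusted p = 9.49e-06) and 6.70 for Ephb3 (SE 0.33, adjusted p = 8.3e-07). They were -1.81 for Ephb4 (SE 0.26, adjusted p = 0.000411) and -2.05 for Efnb2 (SE 0.39, adjusted p = 0.00224). Without lung replicate 2, the library with the higher Efnb2 and Ephb2, the values were -2.89 for Efnb2 and 5.65 for Ephb2. Ephb1, with 10 and 15 counts in lung, differed by -5.15 (SE 1.34, adjusted p = 0.0141), and this call was lost without P0 Emcn+ replicate 1 (-3.97, adjusted p = 0.0767) or lung replicate 1 (adjusted p = 0.0977). Efnb3, at 1.02 and 0.738 CPM in lung, differed by 1.61 (SE 0.52, adjusted p = 0.0324), a call that DESeq2 did not make (adjusted p = 0.0654). The adjusted p was 0.101, 0.129 and 0.157 when P0 Emcn+ replicate 1, P0 Emcn+ replicate 2 or lung replicate 1 was left out.

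**Figure D3:**
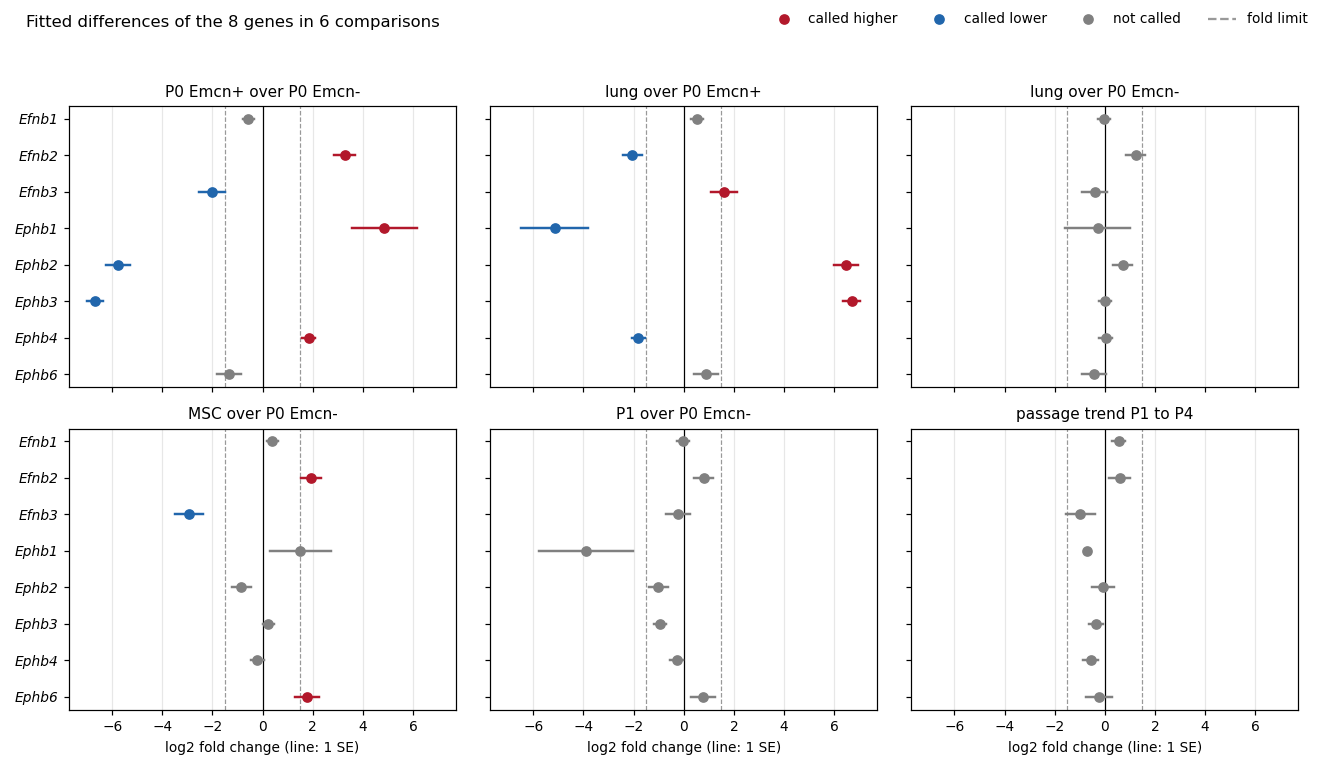
Log2 fold change of each gene in 6 comparisons, with lines of 1 standard error; red and blue points passed both limits, grey points did not, and dashed lines mark the fold limit of 1.5. Ephb1 has no error line in the passage trend, where its P3 libraries held 0 counts. The panels of P0 Emcn+ over P0 Emcn- and of lung over P0 Emcn+ show 6 called genes each.

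BM MSC had higher Efnb2 and Ephb6 and lower Efnb3 than P0 Emcn- BMECs, 3 of 8 genes where 18.7% of all genes were called (11.3% higher, 7.45% lower). Efnb2 had 63.3 and 66.996 CPM in MSC, above every library except those of P0 Emcn+, and the log2 fold change over P0 Emcn- was 1.93 (SE 0.39, adjusted p = 0.00432). Ephb6 reached its highest level here, with 42.3 and 30.2 CPM against 8.21 and 15.1 CPM. Its log2 fold change of 1.75 (SE 0.48, adjusted p = 0.0177) dropped to 1.38, under the fold limit, in a fit with the batches as replicate block, and the call was lost when MSC replicate 1 was left out (1.45, adjusted p = 0.0908) and when P0 Emcn- replicate 1 was (1.35, adjusted p = 0.115). Efnb3 had 5 counts in each MSC library (0.140 and 0.152 CPM), for a log2 fold change of -2.95 (SE 0.56, adjusted p = 0.00306).

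The other 5 genes were not called between MSC and P0 Emcn-. Ephb3 had 50.4 and 51.6 CPM in MSC against 50.5 and 42.0 CPM, so the ranges overlapped, with a log2 fold change of 0.23 (SE 0.24, adjusted p = 0.464). Ephb4 had 63.6 and 71.1 CPM, a log2 difference of -0.21 (SE 0.25, adjusted p = 0.535). Ephb2 had 22.5 and 38.8 CPM, below both P0 Emcn- libraries, with -0.84 (SE 0.38, adjusted p = 0.107). Efnb1 had 66.8 and 48.9 CPM with 0.39 (SE 0.23, adjusted p = 0.209). For Ephb1 the fitted value of 1.51 changed sign without MSC replicate 2, to -0.97.

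Passaging of the Emcn- cells called 0 of the 8 genes between P0 and P1 (8.84% of all genes called), also by DESeq2, with 2 genes at an unadjusted p under 0.05 by edgeR. Of all genes, 17.5% passed the p limit with or without the fold limit. Ephb3 passed the p limit but not the fold limit. It went from 50.5 and 42.0 CPM at P0 to 19.8 and 23.9 CPM at P1, without overlap, a log2 fold change of -0.93 (SE 0.24, adjusted p = 0.026). Ephb2 went from 52.2 and 64.6 to 27.7 and 23.7 CPM, also without overlap, but at -1.02 (SE 0.38) its adjusted p was 0.0874. Efnb2, at 27.6 and 29.5 CPM in P1, lay above both P0 Emcn- libraries with 0.80 (SE 0.38, adjusted p = 0.166). Efnb1 (-0.04, SE 0.23), Ephb4 (-0.28, SE 0.25), Ephb6 (0.77, SE 0.47) and Efnb3 (-0.24, SE 0.49) had adjusted p from 0.271 to 0.998. For Ephb1, 38 counts in the P0 Emcn- pair against 2 at P1 gave a ratio of 23.5 with a 95% counting interval of 6.08 to 201, but all 38 came from replicate 1.

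From P1 to P4 no member passed the test of a linear trend, in which 0.268% of all genes were called. By edgeR 0 of the 8 had an unadjusted p under 0.05, and DESeq2 called 0. The trend is given as the log2 change over the 3 steps from P1 to P4. Efnb2 had 0.59 (SE 0.42, adjusted p = 0.6) and Efnb1 0.56 (SE 0.26, adjusted p = 0.391), with Ephb4 at -0.57 (SE 0.29, adjusted p = 0.443). Efnb3, at 12 to 35 counts per library, had -0.99 (SE 0.57, adjusted p = 0.494), with -0.54 in batch b and -1.73 in batch c.

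Within both passage series Efnb2 was lowest and Ephb4 highest at P1. Efnb2 was 27.6, 35.0, 42.7 and 41.5 CPM from P1 to P4 in batch b and 29.5, 38.5 and 38.1 CPM from P1 to P3 in batch c. Ephb4 was 56.6, 41.5, 34.5 and 40.5 CPM in batch b and 66.0, 61.0 and 49.6 CPM in batch c. In each batch the later passages therefore had more Efnb2 and less Ephb4 than P1. The change over 3 steps within batches b and c was 0.61 and 0.55 for Efnb2, -0.51 and -0.62 for Ephb4 and 0.48 and 0.25 for Efnb1.

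Ephb6 and Ephb3 did not overlap between batches b and c, and the share of all genes without such overlap was not counted. Ephb6 had 15.1, 12.2, 12.4 and 14.1 CPM in batch b and 20.2, 26.9 and 26.6 CPM in batch c, without overlap, and its change over 3 steps was -0.09 and 0.59. Ephb3 had 15.1 to 19.8 CPM in batch b and 23.1 to 27.5 CPM in batch c, with -0.32 and 0.31. Ephb2 had 21.1 to 27.7 CPM in batch b and 17.7 to 23.7 CPM in batch c, which overlapped, with -0.23 and -0.63. Ephb1 had 0 to 3 counts per library.

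**Figure D4:**
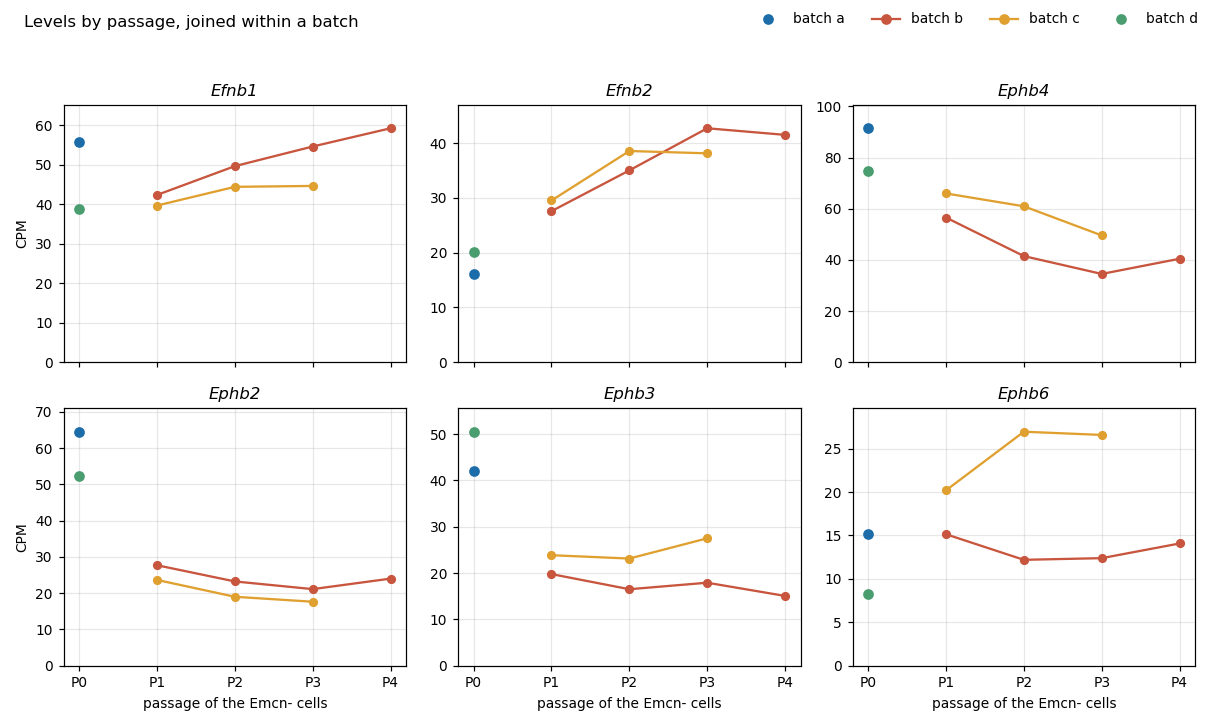
Level in CPM of 6 members by passage of the Emcn- cells, with lines joining libraries of the same batch and single points for the P0 libraries. Efnb2 lies above and Ephb4 below the P1 level at each later passage in both batches (27.6 to 41.5 CPM for Efnb2 from P1 to P4 in batch b). Ephb6 and Ephb3 do not overlap between batches b and c, which was not set beside all genes.

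Against the mean of the passaged P1 to P3 cells, MSC had 2 of 8 genes called (14.2% of all genes), Ephb1 higher (8.42% higher) and Efnb3 lower (5.81% lower). Efnb3 had a log2 fold change of -2.33 (SE 0.50, adjusted p = 0.00538), and without MSC replicate 1 the adjusted p was 0.05 to 2 decimals, above the limit. Ephb1 had 108 counts in the MSC pair and 8 in the 6 passaged libraries, a ratio of 37.1 with a 95% counting interval of 18.2 to 88.2, but 98 of the 108 came from MSC replicate 2 and the call was lost without it (adjusted p = 0.158). Of all genes, 32% passed the p limit with or without the fold limit. Ephb3 passed the p limit but not the fold limit, with a log2 fold change of 1.16 (SE 0.18, adjusted p = 0.00111) and MSC levels above all 7 passaged libraries. Within batch c, which holds both MSC libraries and 3 passaged ones, the difference was 1.04 for Ephb3, 0.89 for Efnb2 and 0.55 for Ephb6.

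Across the 8 conditions the order of levels can be read from the condition means and ranges. Efnb2 was highest in P0 Emcn+ (172 ± 65.7 CPM, mean ± SD, n = 2), then MSC (65.2 ± 2.60), and both were apart from the rest. P4, lung, P3 and P2 formed a chain of overlapping neighbours. P1 (28.5 CPM) lay below P2, P3 and P4 without overlap but within the wide lung range (22.5 to 59.5 CPM). P0 Emcn- (18.1 ± 2.83) lay below every other condition without overlap. Ephb4 was highest in P0 Emcn+ (290 ± 15.4 CPM), apart from P0 Emcn- (83.2 ± 11.8), and every later pair of neighbours down to P4 (40.5) overlapped. Ephb2 was highest in lung (91.8 ± 57.1), which overlapped with P0 Emcn- (58.4 ± 8.70). Ephb3 had MSC (51.0 ± 0.859), P0 Emcn- (46.2 ± 6.04) and lung (44.3 ± 8.94) overlapping at the top and the passaged cells below them. Efnb1 stayed within a narrow range, with overlapping neighbours from P4 (59.3) to P1 (41.0 ± 1.89) and P0 Emcn+ (31.1 ± 3.59) below.

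The genes whose log2 CPM followed a member most closely over the 15 libraries, among 11303 to 11304 genes searched, are a description, since libraries of a condition and of a batch are not independent points. Ephb3 was followed by Ror2, a Wnt receptor of mesenchyme (Pearson r 0.99), Sh3rf3 and Zfp503, and Ephb2 by Rhbdl3 (0.972), Ror1 and Slit3. Ephb4 was followed by Tnk2 (0.985), a cytoplasmic tyrosine kinase, Ifnar1 and Fscn1, and Ephb1 by Dapk2 (0.967), Nes and Podxl. Efnb2 was followed by Arhgef5 (0.96) and Ica1. For Efnb1 they were Pard6g (0.929), Cyp26b1 and Wdr41, for Ephb6 Fam120c (0.97), Slitrk6 and Pbxip1, and for the scarce Efnb3 the ribosomal protein genes Rps18 (0.944), Rps10 and Rpl32. Among the members, Ephb2 and Ephb3 had the highest r (0.948), followed by Ephb1 and Ephb4 (0.828). Efnb2 and Ephb4, the arterial and venous labels, had 0.647, and Ephb3 and Ephb4 -0.795. The difference between P0 Emcn+ and the other conditions enters each of these values.

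Other genes of the pathway were counted in lists. Between P0 Emcn+ and P0 Emcn-, where 7.79% of all genes were called higher and 11.4% lower, 2 of 5 ephrin-A ligands were higher, Efna1 (4.69, SE 0.94, adjusted p = 0.00337) and Efna5 (2.78, SE 0.54), and 1 was lower, Efna2 (-2.45, SE 0.27). Of 9 EphA receptors 6 were tested. Epha2, a receptor of ephrin-A1 known from endothelium, was higher (5.07, SE 0.76, adjusted p = 0.000604), and Epha1 (-4.19), Epha3 (-4.35) and Epha7 (-2.46) were lower. Of 12 adaptors of ephrin-B reverse signalling, Rgs3 was higher (2.19, SE 0.17, adjusted p = 8.5e-06) and Ptpn13 (-4.96), a phosphatase that binds the ephrin-B tail, Tiam1 (-3.31) and Dvl2 (-1.56) were lower. Of 13 genes listed as effectors of EphB forward signalling, the exchange factors Arhgef15 (4.28), Kalrn (3.42), Vav3 (2.65) and Itsn2 (2.10) were higher and Ngef (-6.23, adjusted p = 0.0471) was lower. No SE could be derived for Ngef, so its value gives a direction and not a size. Of 6 proteases and kinases that act on ephrins or Ephs, Rhbdl2 (4.07), Fyn (2.00) and Yes1 (1.75) were higher. The median log2 fold change was -0.52 for the ephrin-A ligands, -1.16 for the EphA receptors, 0.32 for the adaptors, 0.53 for the effectors and 1.57 for the proteases and kinases, beside -0.06 over all genes.

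Of 14 arterial genes 6 were called higher in that comparison and 8 were not called, with a median of 1.84. Of 10 venous genes 6 were called higher and 4 were not called, with a median of 2.53. These counts stand beside the 7.79% of all genes called higher and the 10 of 10 endothelial markers called higher, whose part in them was not tested. Among the arterial genes not called, Hey2 had -1.25, Nrp1 -1.11 and Unc5b -0.95, and the others had positive values. The venous genes not called were Aplnr (2.23), Vwf (0.78), Nr2f2 (0.03) and Ackr1 (-0.59). The arterial genes called higher included Dll4 (5.36), a Notch ligand, and Gja5 (4.80), and the venous ones Nrp2 (2.83) and Flt4 (6.53). The venous list includes Emcn, the sort marker itself.

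Some genes of the A class were called higher in lung ECs and MSC than in P0 Emcn-. Where 3.83% of all genes were called (414 of 19401 genes called higher), lung ECs had 3 of 6 tested EphA receptors higher than P0 Emcn-. They were Epha4, Epha5 and Epha7, from 2.08 to 3.35. Of 5 ephrin-A ligands 1 was higher, Efna5 (4.08). The medians of the receptor and ligand lists were 2.17 and 0.31 beside 0 over all genes. Where 11.3% of all genes were called higher, MSC had 5 of 6 higher (Epha2, Epha3, Epha4, Epha5 and Epha7, from 2.32 to 4.26) and 2 of 5 ligands, Efna3 (4.65) and Efna5 (4.25), with medians of 3.57 and 1.74 beside 0.01 over all genes. Between P0 Emcn- and P1, where 8.84% of all genes were called (1120 of 19401 genes called higher), Epha7 was higher (2.11).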

How the data were processed

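RNA was measured by RNA-seq in 15 libraries of 8 conditions. Per the study's methods, the authors aligned reads with STAR to GRCm38 and quantified genes with Salmon. The deposited values are estimated counts per gene, here already whole numbers, and the rounding is not described in the sources used here. The 8 rows with a gene identifier but no symbol stayed in the fits. CPM used library totals, and CPM per kb the union of exons of GENCODE M21, which may differ from the Ensembl annotation of the authors.

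Differences were tested in R 4.3.3 with edgeR 4.0.16 (quasi-likelihood, TMM factors, filterByExpr with a minimum count of 10 and total of 15, 1 coefficient per condition, all 15 libraries, two-sided), with Benjamini-Hochberg adjustment over 19401 genes. The fit was tested on simulated data with a common spread, no batches or pairs, and changes in well-counted genes only. That test therefore does not cover members with few counts, such as Efnb3 and Ephb1. The alternatives were each library left out in turn, RLE factors, library totals (added after seeing the data), other filters, DESeq2 1.42.0, ashr 2.2.63, the compared groups alone and a replicate block (batch d against a and c against b). Within-batch differences used log2(CPM + 0.1). Counting intervals and limits cover counting error only. By the labels, same-numbered libraries share a batch within the P0 and lung set and within the passages, while both MSC libraries are in batch c. The deviations of same-numbered libraries correlated at 0.139 to 0.209 among P0 and lung and 0.354 to 0.451 among passages, so they were taken as pairs in the block. No 2 replicates were alike within sampling noise (chi-square over its degrees of freedom, 27.9 to 96.2).

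The members and lists were chosen with earlier results of these data known. All 8 members are named, together with the 3 genes most like each among genes reaching a mean of 10 CPM (1 of them is not reported here), and the called genes of each pathway list.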

Additional observations from a re-analysis of the deposited data

How the results depend on the processing

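Each condition had 1 or 2 libraries, and the calls named above as lost were of Efnb3, Ephb1 and Ephb6. The cause was not tested. RLE factors, library totals, the other filters, DESeq2, ashr and the compared groups alone kept the direction of every called member that they tested. The Ephb3 difference of lung over P0 Emcn- (0.00093) became -0.000736 with RLE factors, -0.0628 with library totals, -0.00468 with no filter, -0.0115 with at least 50 counts in 2 libraries, -0.00185 with DESeq2 and -0.000445 with ashr. Ephb4 in that comparison became -0.0328 with library totals. The replicate block turned Ephb1 of lung over P0 Emcn- to 0.12 and Ephb6 of the passage trend to 0.14, took Ephb6 of MSC over P0 Emcn- under the fold limit, and changed no other call. The number of members called was 1 for P1 over P0 Emcn- with no fold limit, where 3387 of 19401 genes passed. For MSC over the passaged cells it was 1 with at least 50 counts in 2 libraries, where Efnb3 was not tested (1951 of 14639 genes called). It was also 1 with the compared groups only (2593 of 17172) and 1 within batch c (2435 of 16581).

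Leaving out each library in turn gave 4 to 7 called members for P0 Emcn+ over P0 Emcn-, 0 to 1 for lung over P0 Emcn-, 4 to 6 for lung over P0 Emcn+, 2 to 3 for MSC over P0 Emcn- and 1 to 2 for MSC over the passaged cells, and 0 throughout for P1 over P0 Emcn- and the trend. For lung over P0 Emcn- the values ranged from -0.26 to 0.24 for Efnb1, -0.87 to 0.11 for Efnb3, -1.03 to 6.74 for Ephb1, -0.094 to 1.23 for Ephb2, -0.20 to 0.17 for Ephb3, -0.36 to 0.33 for Ephb4 and -0.82 to 0.045 for Ephb6. For MSC over P0 Emcn-, Ephb1 ranged from -0.97 to 8.53. For P1 over P0 Emcn- the ranges were -0.29 to 0.22 for Efnb1, -0.71 to 0.26 for Efnb3 and -7.07 to 3.14 for Ephb1. For the trend they were -4.75 to 2.16 for Ephb1, -0.55 to 0.062 for Ephb2, -0.46 to 0.14 for Ephb3 and -0.42 to 0.26 for Ephb6. For MSC over the passaged cells they were -0.029 to 0.48 for Efnb1 and -0.034 to 0.70 for Ephb2. Over all genes, the trend had 52 calls, against 205 with no filter, 353 with DESeq2, 198 with ashr and 290 with the passaged groups alone. With the compared groups alone, lung over P0 Emcn- had 145 calls against 743, and P1 over P0 Emcn- 968 against 1715. For MSC over P0 Emcn- that count was 2396 against 3630. A pseudocount of 1 CPM in the ratio of Efnb2 to Ephb4 moved no mean of a condition with 2 libraries by more than their spread.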
